A study of Mus musculus with 3 samples.

Results

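Pi16 epitenon fibroblasts are defined here as cells with epitenon transcripts in which Pi16 transcripts outnumber those of the epitenon genes Krtdap and Ccn3. Their position in the tendon was not measured. They were taken from single-cell RNA sequencing of mouse flexor digitorum longus (FDL) tendons, and made up 262 of 19709 kept cells in 3 libraries. A barcode was kept with 1000 to 5000 detected genes and at most 10% of its UMIs (unique molecular identifiers, each standing for 1 captured transcript) from mitochondrial genes. An epitenon cell had at least 10 UMIs summed over Efemp1, Pi16, Scara5, Cd248, Krtdap and Ccn3, and more of these than of the tenocyte genes Tnmd, Fmod, Kera and Cilp2. It also had at most 2 UMIs of the myeloid genes Tyrobp and Fcer1g and 0 of the endothelial genes Pecam1 and Cdh5. Pi16 cells were the epitenon cells with at least 3 Pi16 UMIs and more Pi16 than Krtdap and Ccn3 UMIs together, and the remaining 3715 of 3977 epitenon cells are called other epitenon cells. The selection therefore rested on measured values, and every contrast of Pi16 cells with other epitenon cells is a description of what was selected.

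The WT library came from Scx-Cre-; DTR F/+ littermates and the DTR library from Scx-Cre+; DTR F/+ mice, and both genotypes were given 5 daily injections of diphtheria toxin (DT). The Scx promoter drives Cre in cells of the tendon lineage, where Cre removes a stop cassette and the diphtheria toxin receptor is made, so that DT kills these cells; WT mice carry the receptor allele and received DT but lack Cre. The B6 library came from untreated C57BL/6J mice aged 21 months, which have neither the receptor allele nor DT. For WT and DTR, the labels give an age of 3 months, which by the study's methods is the age at injection, with tendons taken at 6 months. Each library pooled 16 FDL tendons of mice of both sexes, and each group has 1 library. Age, strain and treatment cannot be told apart between B6 and WT, and the WT tendons were digested for 120 min against 90 min for DTR and B6, which cannot be told apart from the groups either. With no replicate library, no test between groups was possible. All intervals given are 95% intervals that cover counting error only. Variation of UMIs from cell to cell within a library, and differences between mice, pools and digestions, are not in them.

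The epitenon is the thin layer of cells around a tendon, between the tendon proper and its sheath, where lubricin lets the tendon glide. Pi16 encodes a secreted or membrane-bound peptidase inhibitor, and fibroblasts that make it together with the surface peptidase Dpp4 are known from the outer layer of blood vessels, the fascia and the skin. There they are described as a fibroblast reservoir that can give rise to more specialised fibroblasts. Efemp1 encodes the fibulin-like matrix protein fibulin-3, Scara5 a ferritin receptor and Cd248 the surface glycoprotein endosialin, all known from the same kind of fibroblast.

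Pi16 cells numbered 39 of 8357 kept cells in WT, 37 of 6554 in DTR and 186 of 4798 in B6. This was 0.467% of kept cells in WT (exact binomial interval 0.332 to 0.637%), 0.565% in DTR (0.398 to 0.777%) and 3.88% in B6 (3.35 to 4.46%). The share in B6 was 8.31 times that in WT (5.86 to 12.1), and the share in DTR was 1.21 times that in WT (0.750 to 1.95), an interval that holds equality. Epitenon cells as a whole made up 11.5% of kept cells in WT, 14.8% in DTR and 42.8% in B6. Among epitenon cells, Pi16 cells were 4.08% in WT (2.91 to 5.53%), 3.82% in DTR (2.71 to 5.23%) and 9.06% in B6 (7.86 to 10.4%). The B6 share of epitenon cells was 2.22 times the WT share (1.57 to 3.23) and the DTR share 0.938 times (0.582 to 1.51). The first denominator thus also holds the larger epitenon share of B6, while the second does not.

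**Figure D1:**
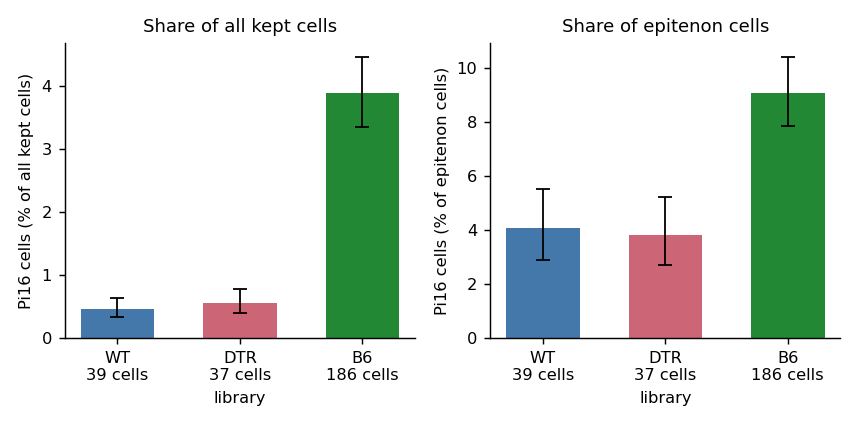
Pi16 cells as a percentage of all kept cells (left) and of epitenon cells (right) in the WT, DTR and B6 libraries, with 95% exact binomial intervals. The B6 bars stand at 3.88% and 9.06%, above the WT and DTR bars, whose intervals overlap each other in both panels.

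Cells called female (Xist and no Y-linked UMI) made up 85.7% of the sex-called Pi16 cells in WT (30 of 35), 58.1% in DTR (18 of 31) and 63.4% in B6 (97 of 153). Among other epitenon cells the female share was 68.5%, 44.6% and 54.7%, so the pools differed in sex in both kinds of cell. Within female-called cells the B6 share of epitenon cells was 1.99 times the WT share, and within male-called cells 3.81 times, the latter from 5 WT cells. Pi16 cells had a median of 14159 UMIs in WT, 11209 in DTR and 14113.5 in B6, and a median of 3159, 2813 and 3096 genes. Their median mitochondrial share was 3.00%, 3.05% and 4.58%. Other epitenon cells had medians of 16447, 16679 and 14985 UMIs, so Pi16 cells were the shallower of both kinds in all 3 libraries. The UMIs of Pi16 cells summed to 560534 in WT, 412923 in DTR and 2706518 in B6, and a count of 0 therefore allows up to 5.35, 7.27 and 1.11 CPM (counts per 1000000 UMIs, from 3 counts). Between pairs of libraries, 13 to 15 kept barcodes were shared, and 0 of them were Pi16 cells in both.

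A minority of cells lay at the limits of the selection. Pi16 exceeded Krtdap and Ccn3 together by exactly 1 UMI in 1 Pi16 cell of WT, 6 of DTR and 16 of B6, and just outside, 2, 3 and 16 epitenon cells had equal counts. Exactly 3 Pi16 UMIs were found in 0, 0 and 4 Pi16 cells, and 3, 0 and 1 cells missed the minimum with 2 Pi16 UMIs. The sum over the 6 epitenon genes was 10 to 12 UMIs in 1, 1 and 14 Pi16 cells, and 3, 2 and 11 cells missed only this limit with 7 to 9 UMIs. The requirement that Pi16 outnumber Krtdap and Ccn3 set aside most cells with Pi16. At least 3 Pi16 UMIs were present in 181 epitenon cells of WT, 163 of DTR and 762 of B6, which is 18.9%, 16.8% and 37.1% of epitenon cells, and 142, 126 and 576 of these were set aside because Krtdap and Ccn3 were as high or higher. Outside the limits on genes and mitochondrial share, 4, 1 and 9 barcodes with over 5000 genes and 0, 0 and 8 barcodes over the mitochondrial limit would otherwise have met the rule.

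**Figure D2:**
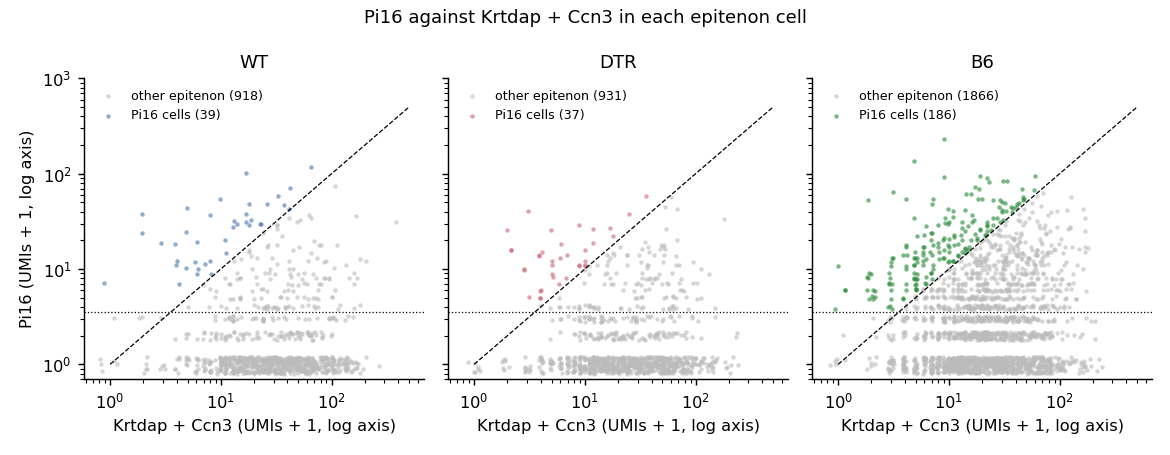
Pi16 UMIs against the summed Krtdap and Ccn3 UMIs of each epitenon cell in WT, DTR and B6, both plus 1 on log axes, with the limits of the selection as lines. The 39, 37 and 186 Pi16 cells (coloured) lie above the line of equality and run without a gap into the 918, 931 and 1866 other epitenon cells (grey).

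Values per gene are UMIs summed over the Pi16 cells of a library and scaled to CPM. Of the genes used in the selection, Pi16 stood at 2139 CPM in WT, 1378 in DTR and 1769 in B6, against 97.5, 82.5 and 201 CPM in other epitenon cells. The Pi16 UMIs of single Pi16 cells ran from 6 to 118 with a median of 28 in WT, from 4 to 57 with a median of 12 in DTR, and from 3 to 229 with a median of 16.5 in B6. Efemp1 was at 339, 291 and 523 CPM and was detected in 89.7%, 70.3% and 89.2% of Pi16 cells. Scara5 was at 366, 562 and 354 CPM and detected in 92.3%, 89.2% and 87.6% of them. Cd248 was at 200, 223 and 233 CPM and detected in 71.8%, 70.3% and 79.6%. Pi16 is required by the selection and the other 3 markers count toward it, so their presence in most Pi16 cells describes what was selected. In macrophages (defined below) Efemp1 was detected in 1.90%, 1.03% and 4.48% of cells, Scara5 in 1.90%, 3.41% and 3.98%, and Cd248 in 1.06%, 2.27% and 1.49%. Other epitenon cells also held Efemp1 (159, 137 and 383 CPM), Scara5 (250, 345 and 268 CPM) and Cd248 (148, 192 and 183 CPM). The Pi16 cells also kept the matricellular gene Ccn3, which the study used as an epitenon marker, in 92.3%, 97.3% and 96.8% of cells, at 594, 455 and 632 CPM against 1821, 1735 and 1501 in other epitenon cells.

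To set aside the differing depths, each cell was thinned to 2000 UMIs and the share of cells with a Pi16 UMI was counted. It was 92.3%, 94.6% and 87.6% of Pi16 cells in WT, DTR and B6, and 11.8%, 11.7% and 25.1% of other epitenon cells. In tenocytes (tenocyte genes in place of epitenon genes) it was 0.336%, 0.659% and 2.14%, and in macrophages (at least 10 UMIs each of the myeloid and C1q genes), which should lack the gene, 0%, 0.517% and 0.995%. Without thinning the macrophage share was 1.27%, 1.34% and 7.46%, at median depths of 17143, 13653 and 14609 UMIs, against 29.6%, 28.9% and 54.0% of other epitenon cells. Other epitenon cells held Pi16 above the level in macrophages. This is a description only, since Pi16 counts toward the 10 UMIs that define an epitenon cell. B6 had the highest share of cells with Pi16 in each of these 3 kinds of cell other than the Pi16 cells themselves.

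A list of 28 genes known from Pi16 and Dpp4 fibroblasts of other tissues was compared between Pi16 cells and other epitenon cells. The list describes the selected cells and is no check of their name. Of its 23 genes that were measured at 20 CPM or more, 15 were higher in Pi16 cells than in other epitenon cells in all 3 libraries and 1, Tppp3, was lower in all 3. Of all 4969 genes measured, 696 (14.0%) were higher in all 3 and 1756 (35.3%) lower. The list's median log2 ratio was 0.36 in WT, 0.46 in DTR and 0.23 in B6, against −0.17, −0.06 and −0.09 over all 4969 genes, and 0 of the 23 passed 2-fold in all 3 libraries. Dpp4 was at 120, 94.4 and 83.9 CPM in Pi16 cells against 69.1, 61.1 and 71.8 in others. Cd34, a surface glycoprotein of stromal progenitors, was at 896, 1187 and 899 CPM against 698, 631 and 656. Ly6a, the gene of Sca-1, differed little, at 1475, 1548 and 1223 CPM against 1383, 1574 and 1179. The list summed to 13319, 13874 and 12665 CPM in Pi16 cells and to 10993, 11644 and 10335 CPM in other epitenon cells. The genes of this fibroblast type were thus present across the epitenon cells, and the Pi16 cells were set apart on them by small ratios. Of 11 measured genes known from Col15a1 fibroblasts of other tissues, 5 (45.5%) were higher in all 3 libraries and 2 (18.2%) lower. Their median log2 ratios were 0.17, 0.44 and 0.34. This contrast therefore did not single out the Pi16 and Dpp4 type.

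Pi16 cells stood apart from other epitenon cells in complement, elastic fibre and a few other genes. Summed over 15 complement genes, tenocytes held more in WT, DTR and B6, at 6767, 7285 and 5570.4 CPM against 5231, 4846 and 5350.4. Over 19 elastic fibre genes they held less, at 3971, 3729.9 and 4196 CPM against 5832, 6115 and 6851 in Pi16 cells. Among 4969 genes at 20 CPM or more, 15 were over 2-fold higher in Pi16 cells in all 3 libraries (0.302%) and 41 over 2-fold lower in all 3 (0.825%). C3, the central complement component, was at 1472 CPM in WT, 601 in DTR and 1153 in B6, against 229, 113 and 463 in other epitenon cells, which is 6.44, 5.30 and 2.49 times as much. Its median per cell was 15, 3 and 8 UMIs against 0, 0 and 1. Thinned to 2000 UMIs, a C3 UMI was found in 76.9%, 48.6% and 63.4% of Pi16 cells, 20.4%, 10.8% and 32.2% of other epitenon cells and 2.54%, 1.65% and 3.98% of macrophages. C4b, a further complement component, was at 146, 240 and 297 CPM against 50.5, 55.2 and 138, and C7, of the membrane attack complex, at 23.2, 29.1 and 58.7 CPM against 1.32, 3.73 and 14.6. Of 10 complement genes measured, 8 (80.0%) were higher in Pi16 cells in all 3 libraries, 3 of them over 2-fold, and 1 (10.0%) was lower. Of all genes, 14.0% were higher and 35.3% lower in all 3. The complement list's median log2 ratios were 1.04, 1.59 and 0.74, against −0.17, −0.06 and −0.09 over all genes. For C3, C4b and C7 the ratio was smallest in B6, where other epitenon cells held more of each than in WT or DTR.

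Several genes of elastic fibres, the stretchable part of the matrix, were also higher in the Pi16 cells. Elastin (Eln) was at 214, 31.5 and 116 CPM against 35.5, 10.3 and 27.7, or 6.03, 3.06 and 4.18 times as high. Fbln1, a matrix glycoprotein that binds elastin and fibronectin, was at 221, 174 and 231 CPM against 72.2, 23.4 and 126, and the microfibril gene Mfap5 at 1588, 1298 and 1923 CPM against 901, 750 and 1013. Of 16 elastic fibre genes measured, 9 (56.2%) were higher and 2 (12.5%) lower in Pi16 cells in all 3 libraries, with median log2 ratios of 0.38, 0.63 and 0.44. Ltbp2, which binds microfibrils, was lower, at 28.5, 84.8 and 52.8 CPM against 342, 452 and 202. The fibrillar collagen gene Col3a1 was at 792, 928 and 584 CPM against 1667, 1989.9 and 519, so its lower level in WT and DTR was not found in B6, and of 16 collagen genes 8 (50.0%) were lower and 1 higher in all 3, against 35.3% and 14.0% of all genes.

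Other genes higher in the Pi16 cells encode proteins of varied function. Ogn, the small leucine-rich proteoglycan osteoglycin, was at 232, 300 and 138 CPM against 53.1, 25.2 and 60.9. Ace, the angiotensin-converting enzyme, was at 80.3, 133 and 98.7 CPM against 12.9, 26.6 and 44.3. Marcks, a membrane-bound actin regulator, was at 300, 426 and 246 CPM against 67.5, 80.9 and 113, and Basp1, a related membrane protein, at 116, 50.9 and 110 CPM against 27.5, 15.4 and 34.8. Col14a1, a collagen that sits on fibril surfaces, was 3.16, 4.23 and 1.80 times as high. The aggrecanase Adamts5 was at 482, 777 and 522 CPM against 238, 287 and 277, and it belongs to the peptidase list, of whose 19 measured genes 11 (57.9%) were higher in Pi16 cells in all 3 libraries and 3 (15.8%) lower, against the same 14.0% and 35.3% of all genes. Of 83 ribosomal protein genes, 77 were higher in Pi16 cells in all 3 libraries, all by less than 2-fold, with median log2 ratios of 0.42, 0.34 and 0.20, beside their lower depth.

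The genes lower in Pi16 cells included several of a list of lining genes, not all of which were particular to epitenon cells. Clic5, an intracellular channel-like protein that links membranes to actin, had UMIs in 1 Pi16 cell of WT, 1 of DTR and 21 of B6, and stood at 3.57, 7.27 and 14.0 CPM against 145, 191 and 135 in other epitenon cells. A Clic5 UMI was found in 9.48%, 13.2% and 15.7% of other epitenon cells, and the top 5% of other epitenon cells held 96.0%, 93.7% and 91.7% of them, so that the difference lies in a small number of cells. Prg4, the gene of lubricin, was at 3466, 4383 and 3001 CPM against 6773, 10590.1 and 5865, or 0.512, 0.414 and 0.512 times as high. Its median per cell was much closer, 32, 28 and 26 UMIs in Pi16 cells against 34, 45 and 32 in others, and the top 5% of the other epitenon cells held 57.5%, 64.6% and 51.9% of their Prg4 UMIs. Tenocytes had higher Prg4 medians of 125, 104 and 78 UMIs, so Prg4 did not mark the lining here. A Clic5 UMI was found in only 2.24%, 2.91% and 3.95% of tenocytes. Of 7 lining genes measured, 5 (71.4%, against 35.3% of all genes) were lower in all 3 libraries and 3 over 2-fold, with median log2 ratios of −1.44, −1.27 and −0.97. Aqp1, the water channel aquaporin-1, was at 35.7, 124 and 20.7 CPM against 444, 760 and 152, and the granin Scg3 at 42.8, 24.2 and 90.9 CPM against 480, 372 and 382. Itga6, the laminin-binding integrin chain, was at 8.92, 2.42 and 21.1 CPM against 95.7, 67.8 and 62.5.

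Markers of blood-borne and vascular cells also differed in this contrast. The 5 red cell genes summed to 35.7, 320 and 24.8 CPM in Pi16 cells and to 816, 2475 and 628 CPM in other epitenon cells, with Hbb-bs most abundant at 21.4, 216 and 14.8 CPM and Alas2 at 0 in Pi16 cells of WT and B6. Haemoglobin UMIs had the same medians in both kinds of cell (0, 3 and 0), and the top 5% of other epitenon cells held 97.2%, 93.3% and 97.2% of them. The 6 mural cell genes summed to 17.8, 41.2 and 15.1 CPM in Pi16 cells and to 150, 447 and 53.9 CPM in others, with Rgs5 most abundant and Notch3 at 0 in the Pi16 cells of all 3 libraries. A small number of other epitenon cells thus carried most of these transcripts, and their part in the lower genes listed here was not tested. In the Pi16 cells, 10 macrophage genes summed to 46.4, 79.9 and 42.5 CPM with Lyz2 most abundant at 16.1, 29.1 and 13.3 CPM and Ptprc at 0 in all 3, near the 38.4, 58.7 and 37.1 CPM of other epitenon cells. The endothelial genes Cldn5, Vwf, Emcn and Tie1 and the adipocyte genes Adipoq, Plin1 and Cidec were at 0 in the Pi16 cells of each library. Of 7 T cell genes 6, 7 and 5 were at 0, and the 8 endothelial genes summed to 10.7, 2.42 and 8.50 CPM with Fabp4 most abundant. The 10 tenocyte genes summed to 1843, 2233 and 2678 CPM, with the immediate early gene Egr1 most abundant.

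**Figure D3:**
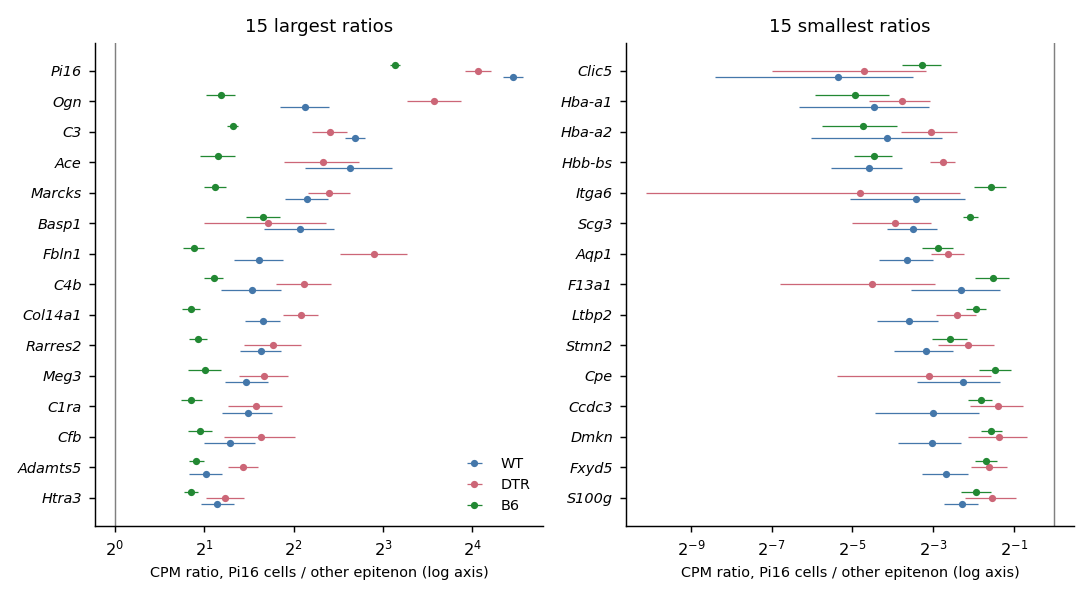
Ratio of CPM in Pi16 cells to CPM in other epitenon cells, on a log2-spaced axis with 95% counting intervals, for the 15 highest and 15 lowest genes by the ratio nearest to 1 over the 3 libraries (WT, DTR and B6 in colour). C3, Ogn, Ace and Marcks lie above 2-fold and Clic5, Aqp1 and Scg3 far below it in each library.

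Epitenon cells were also grouped by their Pi16 UMIs (0, 1 to 2, 3 to 9, and 10 or more) whatever their Krtdap and Ccn3, and 24 genes were followed. The steps are a description only, because the groups rest on Pi16 and the upper ones hold the Pi16 cells. Most of the genes were also already named in the contrast above, and all genes were not counted in this way. Of the 24 genes, 9 were higher at each step in all 3 libraries (C3, Cfb, C1ra, C4b, Mfap5, Cd34, Adamts5, Marcks and Ace). Only Aqp1 was lower at each step in all 3, and 14 did neither, among them Basp1, Col14a1, Ogn and Scg3. C3 went through 123, 297, 473 and 1273 CPM in WT, 64.6, 124, 308 and 608 CPM in DTR, and 249, 428, 729 and 1047 CPM in B6. Marcks went through 48.0, 81.0, 123 and 245 CPM in WT, 56.3, 116, 173 and 317 CPM in DTR, and 83.0, 113, 151 and 207 CPM in B6. Aqp1 went through 566, 199, 139 and 42.8 CPM in WT, 896, 482, 305 and 140 CPM in DTR, and 242, 110, 58.4 and 31.2 CPM in B6. Clic5 was already low at the second step, at 202 then 17.7 CPM in WT, 251 then 38.5 CPM in DTR and 255 then 64.4 CPM in B6. Krtdap, by contrast, was highest in the cells with most Pi16, at 639, 634, 901 and 1495 CPM in WT, 356, 356, 438 and 588 CPM in DTR and 522, 513, 562 and 821 CPM in B6. The low Krtdap of the Pi16 cells (341, 157 and 167 CPM against 748, 383 and 618 in others) is therefore set by the requirement that Pi16 outnumber it. Epitenon cells with 0 Pi16 UMIs had median depths of 16386.5, 17318 and 14745 UMIs, and those with at least 3 had 16384, 13956 and 15132.

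Between libraries, the question is how the Pi16 cells left after Scx-lineage depletion, and those of aged mice, compare with those of WT; WT serves as the control in both comparisons, so a value particular to the WT library enters each. Among 5825 genes at 20 CPM or more in either library, 559 were over 2-fold higher in DTR than in WT (9.60%) and 282 over 2-fold lower (4.84%). With no upper limit on genes per cell, these counts became 366 and 313, which held 57.6% of the main calls. For B6 against WT, 215 of 5430 genes were over 2-fold higher (3.96%) and 278 over 2-fold lower (5.12%). For B6 against DTR, which were digested for the same time, 255 of 5689 were higher (4.48%) and 634 lower (11.1%). The interval of the ratio excluded 1 for 345 higher and 161 lower genes in the first comparison, 189 and 269 in the second, and 208 and 569 in the third. These intervals take UMIs as independent and leave out variation between cells. The median log2 ratio of all genes was 0.12, −0.17 and −0.30, and moved to 0.00, 0.03 and 0.03 with edgeR's TMM scaling, which turned the splits to 438 higher and 371 lower, 362 and 152, and 477 and 274. The direction of the split therefore depended on the scaling for B6 against WT and for B6 against DTR, and TMM also turned the direction of named genes with ratios near 1. Among genes of the lists and rankings with a ratio, 27 of 313 turned for DTR against WT, 38 of 316 for B6 against WT, with Il6 among them, and 48 of 321 for B6 against DTR, all from ratios between 0.801 and 1.08. Gm42418, which overlaps ribosomal RNA sequence and takes part in this scale, held 1.24%, 1.01% and 5.06% of the UMIs of Pi16 cells.

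Heat shock genes were higher in the Pi16 cells of B6 than in those of WT and DTR. They encode chaperones that refold damaged proteins, and their transcription is turned on by heat shock factor binding to heat shock elements. Of 15 such genes, 8 were over 2-fold higher in B6 than in WT and 0 lower, against 3.96% and 5.12% of all genes. The median log2 ratio was 1.03, against −0.17 over all genes. Against DTR, 8 were higher and 0 lower, where all genes gave 4.48% and 11.1%, and the medians were 1.06 and −0.30. Hspa1a, an inducible Hsp70, was at 94.6 CPM in WT, 48.4 in DTR and 586 in B6, a B6 to WT ratio of 6.20 (4.71 to 8.31), and was detected in 64.1%, 37.8% and 71.5% of Pi16 cells. Its near-identical neighbour Hspa1b was at 103, 96.9 and 580 CPM, a ratio of 5.61 (4.31 to 7.42), and reads of this pair may have been divided between them by the counting. For both, the DTR level was at or below that of WT. Hsph1, an exchange factor of Hsp70, was at 23.2, 17.0 and 119 CPM, a ratio of 5.11 (2.95 to 9.71). The co-chaperone Dnaja1 was at 469, 540 and 1124 CPM, a ratio of 2.39 (2.11 to 2.73). Hsp90aa1, the inducible Hsp90, was at 721, 528 and 1475 CPM, a ratio of 2.05 (1.85 to 2.27). The constitutive Hsp90ab1 differed little, at 1475, 1463 and 1612 CPM, a ratio of 1.09. The small chaperone Hspb1 was at 62.4, 218 and 380 CPM, but 1 cell held 51.4% of its WT UMIs and 1 cell 65.6% of its DTR UMIs.

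The sequence before the start of the 2 Hsp70 genes is shown because both genes were higher in B6 and because it holds the classic element, with the match to GAANNTTC (the heat shock element core, searched with TTCNNGAA on both strands) in capitals. These are the 150 bases before the gene start from RefSeq on GRCm38.p6, for Hspa1a at chr17:34972157-34972306 and for Hspa1b at chr17:34959239-34959388, both on the minus strand and outside the transcribed gene, and the match begins 104 bases before the start in each.
Hspa1a: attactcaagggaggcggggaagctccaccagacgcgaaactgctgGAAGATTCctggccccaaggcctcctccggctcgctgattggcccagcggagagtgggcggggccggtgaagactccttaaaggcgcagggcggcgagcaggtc
Hspa1b: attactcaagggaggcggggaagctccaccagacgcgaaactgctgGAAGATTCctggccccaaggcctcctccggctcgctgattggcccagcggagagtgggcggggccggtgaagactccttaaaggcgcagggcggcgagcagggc
A match was found in 8 of the 11 heat shock genes with a RefSeq window (72.7%) and in 2408 of all 27025 windows of this length (8.91%). The match describes the sequence and does not show that it is bound.

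The heat shock difference was not particular to the Pi16 cells. In other epitenon cells the B6 to WT ratio of Hspa1a was 8.23, in tenocytes 13.7 and in macrophages 3.66, against 6.20 in Pi16 cells. For Hsp90aa1 these ratios were 3.03, 3.06 and 2.02 against 2.05. Macrophages of WT, DTR and B6 held 317, 256 and 1159.9 CPM of Hspa1a and 943, 805 and 1907 CPM of Hsp90aa1, above the Pi16 cells. Dnaja1 was at 821 CPM in B6 macrophages, below the 1124 CPM of the B6 Pi16 cells. The part of transcripts from other cells was not tested. The metallothioneins Mt1 and Mt2, which bind zinc and copper and are turned on by stress and glucocorticoids, were likewise higher in B6. Mt1 was at 3764 CPM in WT, 2955 in DTR and 10526 in B6, a ratio of 2.80 (2.68 to 2.92), and Mt2 at 2284, 1373 and 6259 CPM, a ratio of 2.74 (2.59 to 2.90); in other epitenon cells the ratios were 3.38 and 3.52. In the endoplasmic reticulum stress list 0 of 17 genes were over 2-fold higher in B6 than in WT and 1 lower. These counts were near the shares of all genes (3.96% and 5.12%), and the list's median log2 ratio was −0.42 against −0.17. Against DTR 1 of 16 was higher and 0 lower, where all genes gave 4.48% and 11.1%, and the medians were 0.00 and −0.30. The Pi16 cells of B6 also had the higher mitochondrial share given above and a lower share of the nuclear transcript Malat1 (1.12% of UMIs, against 2.15% in WT and 3.13% in DTR), whose part was not tested.

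Several interferon-stimulated genes were also higher in the Pi16 cells of B6, in a list that also holds antigen presentation genes. Of 15 genes measured out of 21, 6 were over 2-fold higher than in WT and 0 lower, with a median log2 ratio of 0.94, and 13 of the 15 had a ratio above 1. Over all 5430 genes 3.96% were higher and 5.12% lower, 1885 had a ratio above 1, and the median was −0.17. Against DTR, 5 of 15 were higher and 0 lower, with a median of 0.78, where all genes gave 4.48%, 11.1% and −0.30. In DTR against WT 2 of 11 were higher and 2 lower, with a median of 0.00, where all genes gave 9.60%, 4.84% and 0.12. Ifit1, which binds viral RNA, was at 0 CPM in WT, 9.69 in DTR and 136 in B6, a B6 to WT ratio of 25.4 when WT is set at its floor of 3 counts, with a lower counting limit of 20.6. Its UMIs in B6 came from 32 of 186 Pi16 cells, with 36.7% from 1 cell. Isg15, a ubiquitin-like modifier, was at 3.57, 48.4 and 67.6 CPM, a B6 to WT ratio of 19.0 (5.17 to 158) that rests on 2 UMIs in WT, and was found in 38 cells of B6. Both genes thus came from a minority of the B6 cells. The GTPase gene Irgm1 was at 8.92, 19.4 and 109 CPM, a ratio of 12.2 (5.18 to 37.9), and the interferon-induced DNA sensor Ifi203 at 21.4, 19.4 and 212 CPM, a ratio of 9.91 (5.63 to 19.3). Irf7, the transcription factor of the type I interferon response, was at 7.14, 7.27 and 30.3 CPM, a ratio of 4.25 (1.60 to 16.0). Of the antigen presentation genes, B2m, the shared light chain of MHC class I, at 503, 484 and 831 CPM, a ratio of 1.65 (1.46 to 1.88), and the heavy chain gene H2-K1, at 246, 247 and 295 CPM, a ratio of 1.20, did not pass 2-fold. In other lists, 3 of 10 complement genes were over 2-fold higher in B6 than in WT and 0 lower (median log2 ratio 0.24), 3 of 17 chemokine and cytokine genes and 0 (0.02), and 2 of 6 adipogenic and lipid genes and 0 (0.56), against 3.96% higher and 5.12% lower over all genes and a median of −0.17.

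For the genes with low WT counts, more WT UMIs were found in the other epitenon cells, whose ratios do not stand for those of the Pi16 cells. There the B6 to WT ratio was 8.03 for Ifit1, 4.12 for Isg15, 9.76 for Irgm1 and 5.52 for Ifi203. In macrophages it was 2.03, 1.22, 2.37 and 1.79. Macrophages of WT, DTR and B6 held 107, 133 and 131 CPM of Isg15 and 159, 180 and 284 CPM of Ifi203, above the Pi16 cells. As for Spp1 below, Isg15 and Ifi203 are therefore read neither as expression by the Pi16 cells nor as a difference in it. In the list they are counted by ratio alone. Ifit1 and Irgm1 stood at 30.5 and 29.1 CPM in B6 macrophages, below the Pi16 cells of B6. The sequences before Ifit1 and Isg15 are shown because they hold the interferon-stimulated response element, here searched as GAAANNGAAA or TTTCNNTTTC on both strands and printed in capitals. They are the 150 bases before the gene start from RefSeq on GRCm38.p6, outside the transcribed gene, for Ifit1 at chr19:34640739-34640888 on the plus strand and for Isg15 at chr4:156200819-156200968 on the minus strand. Ifit1 has 2 matches, which begin 104 and 85 bases before the start, and Isg15 has 3 that overlap, which begin 78 to 66 bases before it.
Ifit1: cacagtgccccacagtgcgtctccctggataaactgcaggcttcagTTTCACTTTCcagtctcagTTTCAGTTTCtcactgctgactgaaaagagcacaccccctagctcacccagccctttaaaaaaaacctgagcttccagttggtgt
Isg15: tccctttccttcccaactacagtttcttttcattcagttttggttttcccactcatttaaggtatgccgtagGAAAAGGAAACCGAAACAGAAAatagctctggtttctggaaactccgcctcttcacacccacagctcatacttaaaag
A match was found in 8 of the 17 genes of this list with a RefSeq window (47.1%) and in 499 of all 27025 windows (1.85%).

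Further genes were higher in the Pi16 cells of B6 outside these lists or singly within others. Fgl2, a membrane-bound prothrombinase of the fibrinogen family, was at 37.5 CPM in WT, 279 in DTR and 709 in B6, a B6 to WT ratio of 18.9 (12.3 to 30.6), and was present in 102 B6 cells, while 1 cell held 70.4% of its DTR UMIs. Has1, a hyaluronan synthase, was at 1295, 901 and 3079 CPM, a ratio of 2.38 (2.20 to 2.57). Cxcl12, a chemokine that holds haematopoietic cells in stroma, was at 312, 216 and 671 CPM, a ratio of 2.15 (1.84 to 2.53), and the calcification inhibitor Mgp at 275, 332 and 649 CPM, a ratio of 2.36. Socs3, an inhibitor of cytokine signalling, was at 114, 150 and 469 CPM, a ratio of 4.11 (3.19 to 5.36). Of 21 immediate early genes 3 were over 2-fold higher in B6 than in WT and 0 lower, with a median log2 ratio of 0.45. All genes gave 3.96%, 5.12% and −0.17. Against DTR, which was digested as long as B6, 8 of 22 were higher and 1 lower, with a median of 0.61. All genes gave 4.48%, 11.1% and −0.30 there. Egr1, at 938, 925 and 1789.8 CPM, and Fos, at 2094, 2105 and 3111 CPM, did not pass 2-fold. Immediate early genes are known to respond to tissue digestion, which lasted longer in WT than in B6 and whose part was not tested. In the list of 12 genes known from Col15a1 fibroblasts of other tissues, 7 were over 2-fold higher and 0 lower in B6 than in DTR, and 2 higher and 2 lower in B6 than in WT, where all genes gave 4.48% and 11.1%, and 3.96% and 5.12%.

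Other transcripts were lower in the Pi16 cells of B6, some of them held at higher levels by macrophages and tenocytes. Spp1, the gene of osteopontin, was at 109 CPM in WT, 36.3 in DTR and 2.59 in B6, a B6 to WT ratio of 0.0238 (0.00917 to 0.0520), with UMIs in 18, 13 and 7 cells. Slc7a11, the cystine transporter, was at 107, 75.1 and 16.3 CPM, a ratio of 0.152 (0.101 to 0.228), and Coch, a secreted matrix protein, at 123, 19.4 and 19.6 CPM, a ratio of 0.159 (0.109 to 0.231). Hmox1, heme oxygenase 1, was at 1308, 371 and 525 CPM, a ratio of 0.401 (0.367 to 0.440), and the extracellular glutathione peroxidase Gpx3 at 516, 220 and 226 CPM. For Spp1, Slc7a11 and Coch the ratio in other epitenon cells was 0.0391, 0.213 and 0.314, and in macrophages 0.194, 0.345 and 0.0888. In WT, macrophages held 259 CPM of Spp1, 174 of Slc7a11 and 318 of Coch, all above the Pi16 cells, and tenocytes 3541, 335 and 12198 CPM. These 3 genes in the Pi16 cells were thus below the level in macrophages, and are read neither as expression by the Pi16 cells nor as a difference in it. Of 11 antioxidant and metallothionein genes, 2 (Mt1 and Mt2) were over 2-fold higher in B6 and 3 (Hmox1, Slc7a11 and Gpx3) lower. The list's median log2 ratio was −0.50, and all genes gave 3.96%, 5.12% and −0.17. Slc7a11 is counted here by its ratio alone, with the limit just given. The senescence list had 0 of 6 measured genes past 2-fold in B6 against WT, and a median of −0.16.

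**Figure D4:**
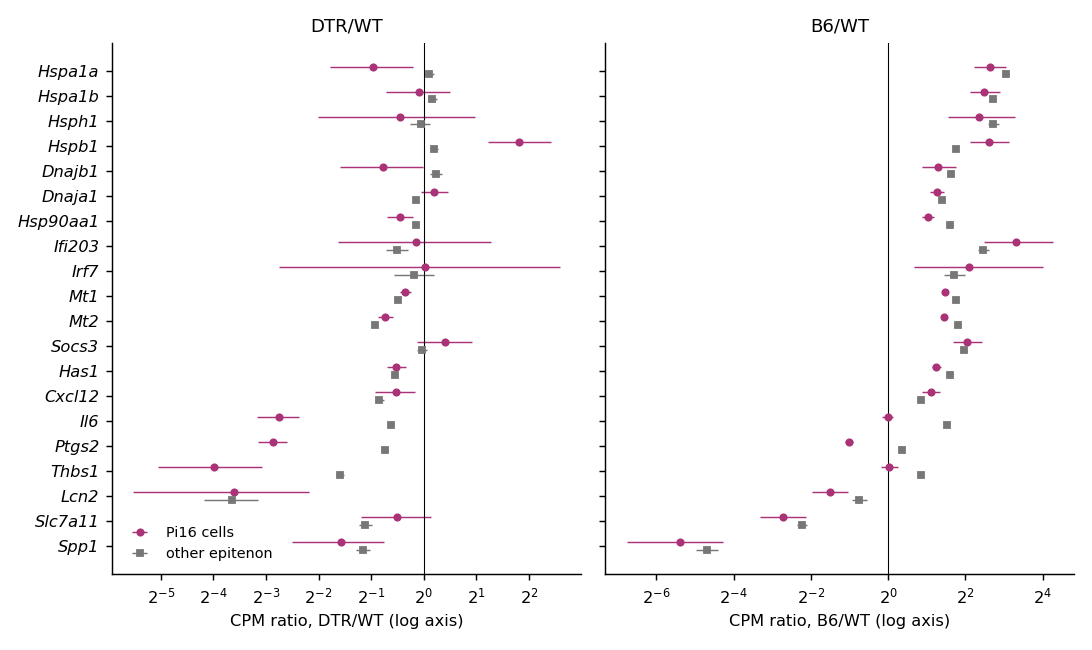
Ratio of CPM in DTR to WT (left) and in B6 to WT (right) for 20 genes, with 95% counting intervals on a log2-spaced axis, in Pi16 cells (circles) and other epitenon cells (squares). Heat shock, interferon and metallothionein genes lie to the right of 1 in B6 in both kinds of cell, and Il6, Ptgs2, Thbs1 and Lcn2 lie to the left in DTR.

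Single genes of inflammation and matrix turnover were lower in the Pi16 cells of DTR than in WT, while the chemokine and cytokine, peptidase and peptidase inhibitor lists had genes past 2-fold in both directions. Il6, the cytokine interleukin-6, was at 1001 CPM in WT, 148 in DTR and 991 in B6, a DTR to WT ratio of 0.148 (0.111 to 0.192), and was found in 61.5%, 32.4% and 59.1% of cells. Ptgs2, the inducible prostaglandin synthase, was at 2199.7, 300 and 1089 CPM, a ratio of 0.137 (0.113 to 0.164), and was found in 82.1%, 37.8% and 72.6% of cells. Thbs1, the matrix protein thrombospondin-1, was at 382, 24.2 and 389 CPM, a ratio of 0.0634 (0.0300 to 0.119). Lcn2, the iron-siderophore carrier lipocalin-2, was at 118, 9.69 and 41.4 CPM, a ratio of 0.0823 (0.0218 to 0.221), with the DTR level close to its floor of 7.27 CPM. All 4 were lowest in DTR, and for Il6 and Thbs1 the B6 level was near that of WT. The urokinase Plau was at 717, 208 and 502 CPM, a ratio of 0.290 (0.227 to 0.367), and its fellow regulator of matrix breakdown, the metalloproteinase inhibitor Timp1, at 282, 65.4 and 282 CPM, a ratio of 0.232 (0.148 to 0.350). Junb, an AP-1 subunit, was at 1706, 637 and 2208 CPM, a ratio of 0.373 (0.325 to 0.428). For Il6 and Thbs1 the B6 to WT ratio was 0.990 and 1.02 in Pi16 cells. It was 2.86 and 1.79 in other epitenon cells, 3.49 and 1.80 in tenocytes, and 2.51 and 0.951 in macrophages. The difference between these kinds of cell was not tested.

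Across lists, the DTR cells showed 3 of 22 immediate early genes over 2-fold lower and 0 higher (median log2 ratio −0.23), 3 of 17 chemokine and cytokine genes lower and 2 higher (−0.32), 3 of 19 peptidase genes lower and 2 higher (−0.17), 2 of 14 peptidase inhibitor genes lower and 1 higher (−0.05), 1 of 10 complement genes lower and 1 higher (0.16), and 3 of 11 antioxidant and metallothionein genes lower and 0 higher (−0.67). Over all genes 9.60% were higher and 4.84% lower, with a median of 0.12, so that the higher shares of the chemokine, peptidase, inhibitor and complement lists were near the background. Of the 12 Col15a1 fibroblast genes, 5 were lower and 0 higher, with a median of −0.75. Gpc3, a glypican of that list, was at 232, 29.1 and 86.5 CPM, but 1 cell held 56.9% of its WT UMIs. The complement gene C3 was at 0.408 times the WT level (0.353 to 0.471), and at 0.495 times in other epitenon cells. Elastin was at 0.147 times (0.0761 to 0.261), although in male-called cells alone its direction turned. In other epitenon cells Il6 was at 0.649, Ptgs2 at 0.602, Thbs1 at 0.331 and Lcn2 at 0.0795 times the WT level, so all but Lcn2 were nearer to 1 there than in Pi16 cells. In tenocytes Il6 was at 0.659, Ptgs2 at 1.18, Thbs1 at 2.09 and Lcn2 at 0.317 times the WT level. No test of these differences between kinds of cell was possible with 1 library each, and the DTR cells were the shallowest of the 3 libraries.

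Among the named genes higher in DTR were Igfbp5, Sema3c and transcripts of other tissues. Of 21 genes of Wnt, BMP and insulin-like growth factor signalling 4 were over 2-fold higher and 5 lower, with a median log2 ratio of 0.04, against 9.60%, 4.84% and 0.12 over all genes. Igfbp5, a binding protein of insulin-like growth factors, was at 1569.9 CPM in WT, 3289 in DTR and 2501 in B6, a ratio of 2.09 (1.92 to 2.28), against 0.799 in other epitenon cells. The semaphorin Sema3c was at 305, 618 and 361 CPM, a ratio of 2.02 (1.66 to 2.47). Thbs4, a thrombospondin of tendon, was at 53.5, 407 and 74.6 CPM, a ratio of 7.60 (5.13 to 11.6), with 50.0% of its WT UMIs and 46.4% of its DTR UMIs in 1 cell each, against 70.9, 105 and 24.5 CPM in macrophages. The red cell gene Hbb-bs was at 21.4, 216 and 14.8 CPM, a ratio of 10.1 (5.49 to 20.2), and the muscle actin Acta1 at 3.57, 77.5 and 22.9 CPM. The 6 muscle genes summed to 5.35, 111 and 53.2 CPM in Pi16 cells and to 15.3, 58.4 and 59.6 CPM in other epitenon cells, with Myod1 and Myf5 at 0 in Pi16 cells of each library. Transcripts of red cells and muscle were thus higher in DTR than in WT in both kinds of cell, and their part in the other differences was not tested. Slurp1, a secreted Ly6-domain protein, was at 8.92, 162 and 51.7 CPM, with 89.6% of its DTR UMIs in 1 cell.

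The list of Pi16 and Dpp4 fibroblast genes had a share of genes past 2-fold near that of all genes in both comparisons with WT. In DTR against WT, 1 of 25 genes was over 2-fold higher and 2 lower (median log2 ratio 0.07, against 9.60%, 4.84% and 0.12 over all genes), and in B6 against WT 1 of 26 was higher and 1 lower (−0.07, against 3.96%, 5.12% and −0.17). Pi16 itself was at 0.644 times the WT level in DTR (0.582 to 0.712) and at 0.827 times in B6 (0.776 to 0.882). In other epitenon cells of B6 it was at 2.07 times the WT level. Since the cells were selected on Pi16, these levels are a description only. Pi16 was at 0 UMIs in 67.5% of epitenon cells of WT, 68.4% of DTR and 41.8% of B6, beside a macrophage share with a Pi16 UMI that was also highest in B6 (7.46% against 1.27% and 1.34%).

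The Pi16 cells were not uniform within a library. To compare cells at 1 depth, each was thinned to 5000 UMIs, which kept 36, 34 and 183 cells, and the variance over the mean of each gene (the Fano factor, near 1 for counting error) was computed for 2423 genes, with medians of 1.21, 1.25 and 1.21. The most variable genes in all 3 libraries were led by secreted attractants of leukocytes. Cxcl1, which draws neutrophils, ran from 0 to 315 UMIs in WT with a median of 33.0, from 0 to 300 in DTR with a median of 5.5, and from 0 to 267 in B6 with a median of 15, with Fano factors of 75.1, 136 and 65.8. Ccl2, which draws monocytes, reached 368, 354 and 206 UMIs with medians of 17.5, 1.0 and 6.0. Tnfaip6, a hyaluronan-binding protein made in inflammation, had Fano factors of 41.0, 47.5 and 27.2. The others were Cxcl2, Ccl7, Mt1, Igfbp5, Myoc, Malat1 and Gm42418, and all 10 were also the leading genes at 3000 UMIs. At this depth 1 of 36 Pi16 cells of WT, 8 of 34 of DTR and 15 of 183 of B6 had no Cxcl1 UMI, and 11, 18 and 75 had at most 10. Without thinning, the Cxcl1 levels summed over the Pi16 cells were 11829.8, 8014 and 8339 CPM.

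**Figure D5:**
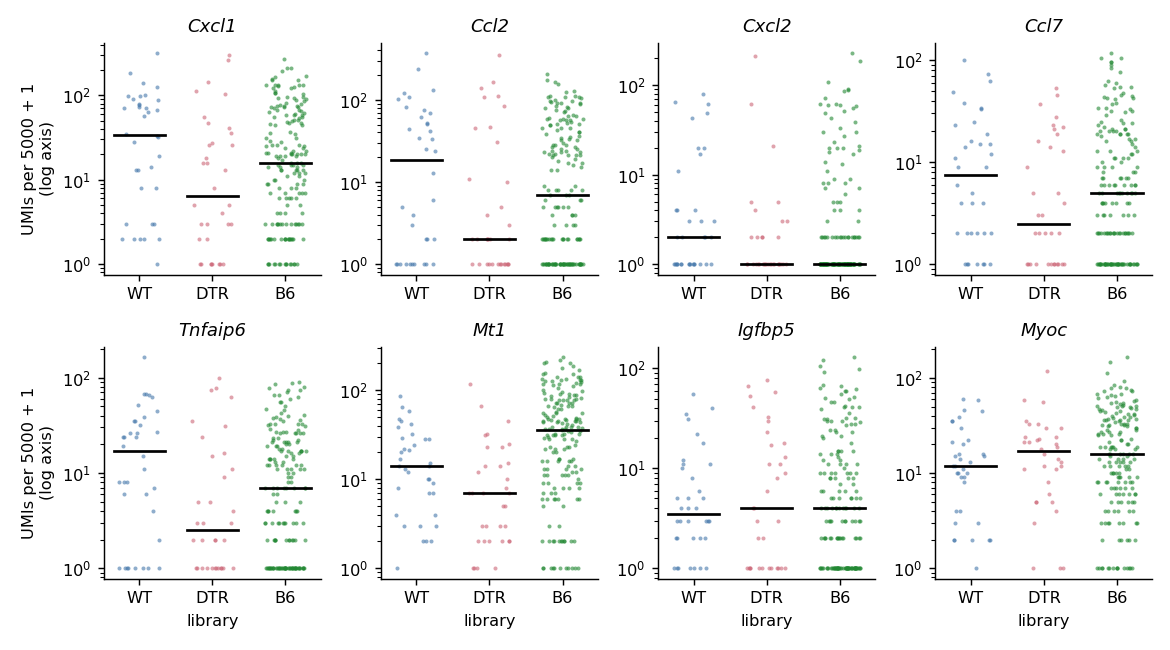
UMIs per cell after thinning to 5000 UMIs, plus 1 on a log axis, of 8 of the most variable genes in the Pi16 cells of WT, DTR and B6 (36, 34 and 183 cells), with a bar at the median. Cxcl1, Ccl2 and Tnfaip6 spread widely from 0 upward in each library, and the Mt1 median is highest in B6 (35 against 13.0 and 6.0).

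The chemokines varied together from cell to cell. As a description of cells that share a library, for pairs picked after their values were seen, Spearman's rho between Cxcl1 and Ccl2 was 0.56 over 36 cells in WT, 0.60 over 34 cells in DTR and 0.55 over 183 cells in B6. Between Cxcl1 and Ccl7 it was 0.50, 0.81 and 0.50, and between Cxcl1 and the metallothionein Mt1 0.37, 0.56 and 0.47. Between Cxcl1 and Pi16 it was 0.01, −0.37 and −0.25, and between Cxcl1 and Myoc, the gene of myocilin, 0.02, −0.39 and −0.16. The proliferation gene Mki67 was found in 2.56%, 2.70% and 0.538% of Pi16 cells, which is 1 cell in each library.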

How the data were processed

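Per the methods and labels, cells of collagenase-digested FDL tendons were captured on the 10x Genomics Chromium with 3′ version 3 chemistry. The authors deposited, for each library, raw UMI counts of 32285 genes by barcode, made with Cell Ranger 6.0.1 per the file headers (the submitters' processing notes name 2.1.1), and the genome build is not given in the sources used here. The files hold 15536 barcodes and 148149903 UMIs for WT, 16099 and 123918145 for DTR, and 12273 and 92707026 for B6, of which 8357, 6554 and 4798 barcodes passed a filter with the limits of the methods. These equal the cell counts the study states for DTR and B6, and for WT its count is a few cells larger.

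From these counts, UMIs were summed over the Pi16 cells of a library and scaled to CPM. Genes with at least 20 CPM in either library were compared, and a ratio past 2-fold was counted. With 1 library per group, ratios have exact conditional binomial intervals and shares exact Clopper-Pearson intervals at 95%, and no p-value was computed. The members and the gene lists were chosen with earlier results of these data known. Named genes were those of the selection, genes of a list past 2-fold or among its 4 most abundant, the 15 highest and 15 lowest ratios against other epitenon cells, the 12 largest and 12 smallest between libraries (at least 50 CPM), and the 10 most variable. No doublet caller was run: the limits on myeloid and endothelial UMIs and an alternative without doublet-like cells stand in its place. The intervals and ratios were tested on simulated counts that hold counting error only. The variation between cells found in these data was not simulated. Sequences are from RefSeq (GRCm38.p6). TMM factors came from edgeR 4.0.16 in R 4.3.3, exact intervals from scipy 1.17.1, and figures from matplotlib 3.10.9, under Python 3.11.15. Some items are not reported here.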

Additional observations from a re-analysis of the deposited data

Results flagged for a closer look

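In B6, 13 of 6307 barcodes with under 1000 genes, outside the kept cells, met the other parts of the rule (0.206%), against 1 of 6295 in WT and 0 of 8646 in DTR. Such barcodes were not used, and whether they were damaged Pi16 cells was not tested.

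For 4 genes, the Pi16 cells and the other epitenon cells lay on opposite sides of 1 in the same comparison, both intervals clear of 1 and the ratios over 4-fold apart; the difference between the cell kinds was not tested. The DTR to WT ratio of Fgl2 was 7.43 (4.64 to 12.5) in Pi16 cells and 0.733 in other epitenon cells, with 70.4% of its UMIs in Pi16 cells of DTR from 1 cell. The DTR to WT ratio of Lsmem1 was 0.329 (0.131 to 0.727) against 1.37. For Slurp1 it was 18.2 (7.42 to 57.8) against 0.645, with 89.6% of its UMIs in Pi16 cells of DTR from 1 cell, and it turned to a log2 ratio of −1.57 with no upper limit on genes; the B6 to WT ratio was 5.80 (2.43 to 18.1) against 0.283. The B6 to WT ratio of Rnd1, a small GTPase that loosens the actin cytoskeleton, was 3.10 (2.01 to 5.01) against 0.727, from 39.2 CPM in the Pi16 cells of WT and 122 CPM in those of B6.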

How the results depend on the processing

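Counts of genes past 2-fold depended on the number of cells and on the filter. They were 841 for DTR against WT, 493 for B6 against WT, 889 for B6 against DTR and 56 against other epitenon cells. With Pi16 over 2 times Krtdap and Ccn3 the first 3 became 1826, 876 and 1620, and after thinning to 5000 UMIs before the selection 1956, 1195 and 1732, from fewer cells or UMIs by construction. In female-called cells DTR against WT gave 1847 and B6 against DTR 1888, and male-called cells gave 1878, 1719 and 1449, with the DTR against WT split turned to 834 higher and 1044 lower. At 50 CPM or more the 4 counts were 262, 174, 347 and 34, and with no filter beyond 1 UMI 2507, 2508, 3539 and 152. The B6 to WT ratio of shares was 13.0 (kept cells) and 3.81 (epitenon cells) in male-called cells, where WT had 5 Pi16 cells. Over the other alternatives it ran from 6.82 to 9.97 and from 1.81 to 2.43, and that of DTR to WT from 0.878 to 1.67 and from 0.718 to 1.45.

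Under alternatives, directions turned for 15 of 1224 values of the ranked genes (those with the largest and smallest ratios), and the cause was not tested; single genes of the lists were followed only under TMM. As log2 ratios, with no upper limit on genes DTR against WT became −0.93 for Mal, −0.33 for Palmd and −1.57 for Slurp1. With Pi16 over 2 times Krtdap and Ccn3, S100g was at 1.16 (B6 against WT), and Slc7a11 at 1.05 and Tchh at −0.17 (B6 against DTR). With 20 or more epitenon UMIs, Cxcl3 was at 0.73 and Tchh at −0.90 (B6 against DTR), and Il1rl1 at 0.46 (B6 against WT). After thinning, Ccl8 was at 0.30 (DTR against WT) and −0.35 (B6 against DTR), and Cxcl3 at 0.82. In female-called cells Cxcl3 was at 2.42 and Tchh at −0.52 (B6 against DTR), and in male-called cells Eln was at 0.15 (DTR against WT).

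Chosen after seeing the data, leaving out each gene's highest Pi16 cell gave 424 higher and 315 lower genes for DTR against WT, 296 and 126 for B6 against WT, and 377 and 259 for B6 against DTR, and takes more from the smaller libraries by construction. No paired analysis was possible because each group has 1 library. The 39 and 37 cells of WT and DTR limit values under about 20 CPM to a few UMIs.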
